A study of Mus musculus with 6 samples.

Results

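The genes described here are Nodal, Lefty1, Lefty2, Tdgf1, Acvr1b, Acvr2b, Smad2, Smad3 and Smad4, which together make up the core of the Nodal signalling pathway. They were taken by name from the deposited expression tables, where the 9 names cover 10 of 62490 assembled loci and 9 of 49377 gene names. RNA had been sequenced from mouse embryonic stem cells, derived from the blastocyst of C57BL/6J mice, of the genotype Mll1fl/fl; Cre-ER TM, in which both copies of Mll1 are flanked by recombination sites and an inducible Cre recombinase is present. All groups share this genotype, and the labels list no induction of Cre for any of them. The first group was untreated, the second received 1 µM 1α,25-dihydroxyvitamin D3 (VD3, the active hormone) for 5 days, and the third received the same dose of VD3 for 5 days together with MM-401 at 100 µM, a compound that inhibits the histone methyltransferase MLL1. How long the untreated cells were cultured is not stated. Each group had 2 libraries, and the tables give 1 pooled column per group, which leaves every difference below without a spread between libraries and without a test. No group received MM-401 alone. All cells grew with leukemia inhibitory factor on mouse fibroblast feeder cells, in 15% serum or 20% serum replacement.

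Nodal is a secreted ligand of the TGF-beta family that acts on the cells that make it and on their neighbours. It binds a complex of a type I receptor (encoded by Acvr1b) and a type II receptor (Acvr2b) together with the membrane-anchored co-receptor Cripto (Tdgf1). The receptors phosphorylate SMAD2 and SMAD3, which join SMAD4 and enter the nucleus, where FOXH1 helps them to bind DNA. Nodal, Lefty1 and Lefty2 are themselves targets of the pathway, and the Lefty proteins are secreted antagonists that hold the signal in check. In the early embryo the pathway maintains the epiblast and later patterns mesoderm and endoderm.

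Some of these transcripts resemble others so closely that short reads may not tell them apart, which bears on the levels given below. The coding sequences of Lefty1 and Lefty2 are both 1107 bases long and were identical at 91.9% of aligned bases. Of the 50-base windows of the longest Lefty1 transcript in GENCODE vM21 (GRCm38), 17.9% also occur in a Lefty2 transcript. The same count was 12.5% for Tdgf1, whose windows recur in the processed pseudogene Tdgf1-ps1 (chromosome 16, 3730510 to 3731022). It was 0% for Nodal, Acvr1b, Acvr2b, Smad2, Smad3 and Smad4.

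Promoter windows from RefSeq (GRCm38.p6) were used for 5 of the 9 genes and not for the others. These 5 were Nodal, Tdgf1, Acvr1b, Acvr2b and Smad3. The 250 bases before their starts were searched on both strands for CAGAC, the core that SMAD proteins bind, for TGTNNATT, a loose form of the FOXH1 core, and for AGGTCA, the hexamer that nuclear receptors such as the vitamin D receptor bind, alone and as a direct repeat with 3 bases between, which contains the single hexamer. The Tdgf1 window is shown because it alone of the 5 held the FOXH1 pattern, at 127 and 101 bases before the start, with the SMAD core between them at 113; the matches are in capitals, the FOXH1 pattern as its reverse complement. It lies at chr9:110946159-110946408 on the minus strand. The starts are those of the annotation. In these data the assembled Tdgf1 locus runs from 110939602 to 110947140 and so covers the window. The assembled Nodal locus starts at 61417793, inside the Nodal window (61417722 to 61417971).
Tdgf1 promoter: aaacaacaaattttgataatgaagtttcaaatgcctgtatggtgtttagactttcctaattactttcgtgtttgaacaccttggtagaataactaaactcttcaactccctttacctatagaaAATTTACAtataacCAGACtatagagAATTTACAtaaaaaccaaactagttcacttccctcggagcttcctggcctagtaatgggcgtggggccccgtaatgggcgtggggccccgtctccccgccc
Of the 32851 promoter windows searched, 10.9% held the FOXH1 pattern and 42.2% held the SMAD core. The SMAD core was also found 233 bases before Acvr2b. The nuclear receptor hexamer, present in 14.0% of the windows searched, was found in 0 of the 5, as was the direct repeat, present in 0.00609%. A match is a description of the letters and not of a bound site.

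The pools held between 62081406 and 73383193 estimated counts. Levels are in FPKM, fragments scaled to transcript length and sequencing depth. The scaling was not to these totals, because the FPKM per count had a median ratio of 1 between pools. The counts thus share 1 scale with the FPKM, and dividing them by the totals, as done below, scales them again. The ranges after the levels are the lower and upper bounds that the authors deposited, whose level is not given. A difference is the log2 ratio of FPKM + 1. A gene was called where it had at least 5 FPKM in the higher pool, the difference was at least 2-fold and the bounds of both pools did not overlap. By that rule 101 genes were higher and 460 lower with VD3 than untreated, and 467 higher and 294 lower with VD3 plus MM-401. In CPM, the counts scaled to the total of each pool, the splits were 22 and 1230, and 190 and 772. The rule in CPM also differs in its minimum, 5 CPM, and in its bounds. Those were the count plus and minus 2 SDs from the authors' count variance. Relative to the median gene the splits were 54 and 474, and 299 and 303. With VD3 plus MM-401 against VD3, 89 were higher and 58 lower (69 and 8 in CPM). The counts were also compared unscaled, as deposited, a scale chosen after the data were seen. The median gene stood 0.36 higher with VD3 and 0.27 higher with VD3 plus MM-401 than untreated, and a relative difference is a difference minus this median. Of the 9 pluripotency markers measured, 0 were under 1 FPKM in any pool. Their summed level was 2037, 3257 and 3070 FPKM in untreated cells, with VD3 and with both agents, which is the order wherever 3 values are given below. Most of this sum was Pou5f1, at 1114, 2053 and 1832 FPKM. With VD3, 0 of the 9 markers were called, beside 5.14% of all genes. Their median difference was 0.27 with VD3 and 0.22 with both agents, beside 0.36 and 0.27 for the median gene.

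No gene of the 9 was called in any comparison, and the authors' bounds overlapped between all pools for all of them. Among all genes tested, 5.14% were called with VD3 (0.926% higher and 4.22% lower), 6.94% with VD3 plus MM-401 (4.26% and 2.68%), and 1.37% between both treated pools (0.83% and 0.541%). Bounds that did not overlap, whatever the fold, were found for 5.33%, 7.05% and 1.4%. A difference of 2-fold alone, which 0 of the 9 reached, was found for 12.2% (3.54% higher and 8.7% lower), 19.6% (13.4% and 6.24%) and 6.68% (4.67% and 2.02%). The median difference of the 9 genes was 0.05 with VD3, where that of all 10911 genes tested was 0.36, and 1 of the 9, Nodal, stood above the median gene. With VD3 plus MM-401 it was -0.06 against 0.27, and 2 of 9, Nodal and Tdgf1, stood above the median gene. Between the treated pools it was -0.07 against 0.02, with 3 of 9 above.

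**Figure D1:**
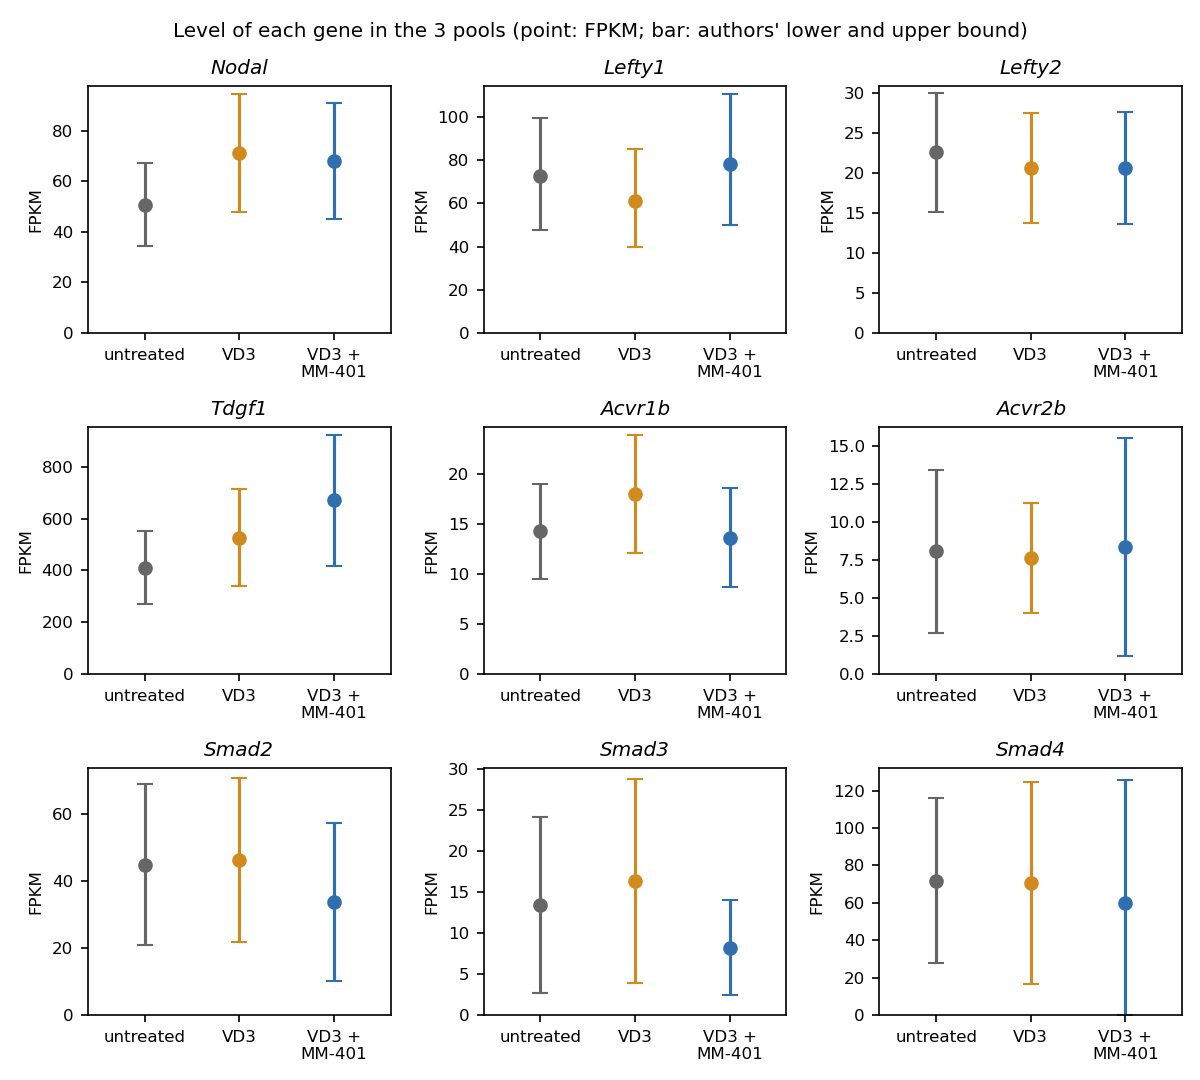
FPKM of each of the 9 genes (vertical axes, linear and starting at 0) in the 3 pools; points are the pooled values and bars the authors' lower and upper bounds. The bars overlap between the pools in every panel, and the lower bound of Smad4 with VD3 plus MM-401 is 0.

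Tdgf1 was by far the most abundant of the 9 and was above 99.0% of protein-coding names in every pool. Behind it the levels formed a continuous series in which neighbours had overlapping bounds. In untreated cells the order was Tdgf1, Lefty1, Smad4, Nodal, Smad2, Lefty2, Acvr1b, Smad3 and Acvr2b. With VD3, Nodal and Smad4 stood above Lefty1, and with VD3 plus MM-401 Smad3 stood below Acvr2b. Only the bounds of Tdgf1 were apart from those of the next gene, in all 3 pools.

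Positions of the genes are those of GENCODE vM21 on GRCm38. Nodal (chromosome 10, 61417972 to 61425338), the ligand, stood at 50.7 FPKM in untreated cells (34.3 to 67.1), 71.2 with VD3 (47.8 to 94.6) and 67.9 with VD3 plus MM-401 (45.0 to 90.8). It was thus higher in both treated pools by about the same amount, with bounds that overlap those of the untreated pool. The difference from untreated was 0.48 for VD3 and 0.41 for VD3 plus MM-401, each with an SD of 0.33 from the authors' count variance. Relative to the median gene these were 0.12 and 0.15, and relative to genes of like GC content and length they were -0.09 and -0.13, so the direction depends on the scaling. The estimated counts were 5939, 8144 and 7467.

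Lefty1 (chromosome 1, 180935022 to 180938400), a secreted antagonist of Nodal, summed over 2 loci to 72.5 FPKM (47.8 to 99.3), 61.1 (39.7 to 85.1) and 78.3 (50.2 to 111). Nearly all of it came from 1 locus. The second, which the tables place within the same interval, was at 0.319, 0.749 and 1.54 FPKM with a lower bound of 0 in each pool. Lefty1 was lowest with VD3: the difference was -0.24 against untreated (SD 0.34), and the pool with both agents stood 0.35 above VD3 (SD 0.34). With VD3 plus MM-401 against untreated it was 0.11, and -0.16 relative to the median gene.

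Lefty2 (chromosome 1, 180893108 to 180899103), the second antagonist gene, lies 35918 bases from Lefty1. It stood at 22.5 (15.1 to 30.0), 20.6 (13.7 to 27.4) and 20.6 FPKM (13.7 to 27.6), and its values hardly differ between the treated pools. Differences from untreated were -0.13 with VD3 and -0.12 with both agents, and -0.49 and -0.39 relative to the median gene. Relative to genes of like GC content and length, the VD3 differences were -0.82 for Lefty1 and -0.70 for Lefty2, both under the 2-fold threshold. How reads were assigned between both Lefty genes was not tested.

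The ratio of Nodal to an antagonist within a pool does not change with the scaling of that pool; the pairs were chosen after their values were seen. Per length, Nodal stood at 0.699 of the Lefty1 level in untreated cells, 1.17 with VD3 and 0.867 with both agents. On the log2 scale these ratios were -0.52, 0.22 and -0.21, each with an SD of 0.33 to 0.34 from the count variance. Nodal was at 2.25, 3.46 and 3.29 times the Lefty2 level. Both ratios were thus higher in the treated pools, and no spread between libraries stands behind them. The Lefty1 to Lefty2 ratio was 3.22, 2.97 and 3.80.

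Tdgf1 (chromosome 9, 110939603 to 110946158) encodes Cripto, the co-receptor that Nodal needs to engage its receptors. It stood at 411 FPKM (269 to 554), 527 (340 to 714) and 670 (419 to 921). Its level was higher in each treated pool than in the untreated one and highest with both agents, where the upper untreated bound of 554 still lies above the lower bound of 419. The difference was 0.36 with VD3 and 0.70 with both agents (SD 0.35 and 0.37), the largest upward difference among the 9 genes. Relative to the median gene these were -0.01 and 0.43, and relative to genes of like GC content and length 0.04 and 0.18. The pseudogene Tdgf1-ps1, which shares sequence with Tdgf1, was listed at 175, 223 and 152 FPKM. It stood at 42.5% and 42.3% of the Tdgf1 level in the untreated and VD3 pools and at 22.6% with both agents. For the sum of both FPKM values, the difference with VD3 plus MM-401 was 0.49 in place of 0.70, and 0.13 in place of 0.35 against VD3. FPKM is scaled to length, so that sum is not a sum of reads. The summed estimated counts were 41963, 54278 and 63138, of which Tdgf1 had 35897, 46547 and 57872. How reads were divided between gene and pseudogene was not tested.

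The receptor genes were among the lowest of the 9. Acvr1b (chromosome 15, 101174067 to 101213684), the type I receptor, stood at 14.3 (9.53 to 19.0), 18.0 (12.1 to 23.9) and 13.6 FPKM (8.71 to 18.6). It was highest with VD3, by 0.32 against untreated, but at -0.05 relative to the median gene, and the difference of the pool with both agents from VD3 was -0.38 (SD 0.34). Acvr2b (chromosome 9, 119402118 to 119434995), the type II receptor, stood at 8.06 (2.72 to 13.4), 7.62 (4.02 to 11.2) and 8.35 FPKM (1.16 to 15.5). Its count had the largest SD of the 9, at 24.3% to 27.5% of the count, where the median of the 9 genes was 16.6% to 16.9%. The authors' bounds give another ranking. For Smad2, Smad3 and Smad4 the upper bounds lie 3.18 to 6.72 count SDs above the FPKM, and Acvr2b did not have the widest bounds relative to the level. Its assembled locus overlaps the annotated antisense gene Gm47320 and the noncoding RNA 4930516B21Rik, and the counting is not stated to use strand. Differences of Acvr2b from untreated were -0.07 and 0.04, of opposite sign and small beside their SDs of 0.53 and 0.56; they were at 0.18 and 0.11 by deposited count and at -0.05 and -0.12 in CPM.

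Smad2 (chromosome 18, 76241580 to 76310963), a receptor-activated effector, stood at 44.8 (20.8 to 68.7), 46.2 (21.8 to 70.6) and 33.7 FPKM (10.1 to 57.3). By FPKM the untreated and VD3 levels were close, with a difference of 0.05. In CPM that difference was -0.35, and relative to the median gene -0.32. Relative to genes of like GC content and length it was 0.46, so the direction depends on the scaling. The level with both agents was the lowest, with a difference from VD3 of -0.44 by FPKM and -0.13 both in CPM and by deposited count. Smad4 (chromosome 18, 73639009 to 73703780), the partner shared by all receptor-activated SMADs, stood at 71.9 (27.9 to 116), 70.6 (16.7 to 125) and 59.8 FPKM (0 to 126). With both agents its bounds were the widest of the 9 relative to the level, and the difference with VD3 plus MM-401 against untreated was -0.26 by FPKM, -0.15 in CPM and 0.09 by deposited count.

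Smad3 (chromosome 9, 63646767 to 63757994), which is activated alongside SMAD2, had the largest difference of the 9 genes. It stood at 13.5 (2.70 to 24.2), 16.4 (3.92 to 28.8) and 8.23 FPKM (2.44 to 14.0), lowest with both agents, with bounds that overlap those of the other pools. Its upper bounds with VD3 and with both agents lie 4.47 and 3.79 count SDs above the FPKM, against a median of 2.34 and 2.43 over genes, so the count SD understates the spread of Smad3 and is not given. With VD3 plus MM-401 against VD3 the difference was -0.91, just short of 2-fold, and 2.69% of the genes tested had a lower one. It was -0.67 both in CPM and by deposited count, and -0.58 relative to genes of like GC content and length. Against untreated it was -0.65 by FPKM, -0.51 in CPM and -0.28 by deposited count. With VD3 alone Smad3 stood 0.27 above untreated, but at -0.10 relative to the median gene.

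All 3 SMAD genes were thus lowest by FPKM with both agents, and Smad2 and Smad3 were so by deposited count too. Smad4 was lowest with both agents in CPM but not by deposited count. Smad2 was at 3.33, 2.82 and 4.09 times the Smad3 level per length, and Smad4 at 5.34, 4.31 and 7.27 times. The count and the FPKM did not move together for Smad3, with 124, 135 and 165 counts per FPKM. For Nodal there were 117, 114 and 110, and the cause was not tested.

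**Figure D2:**
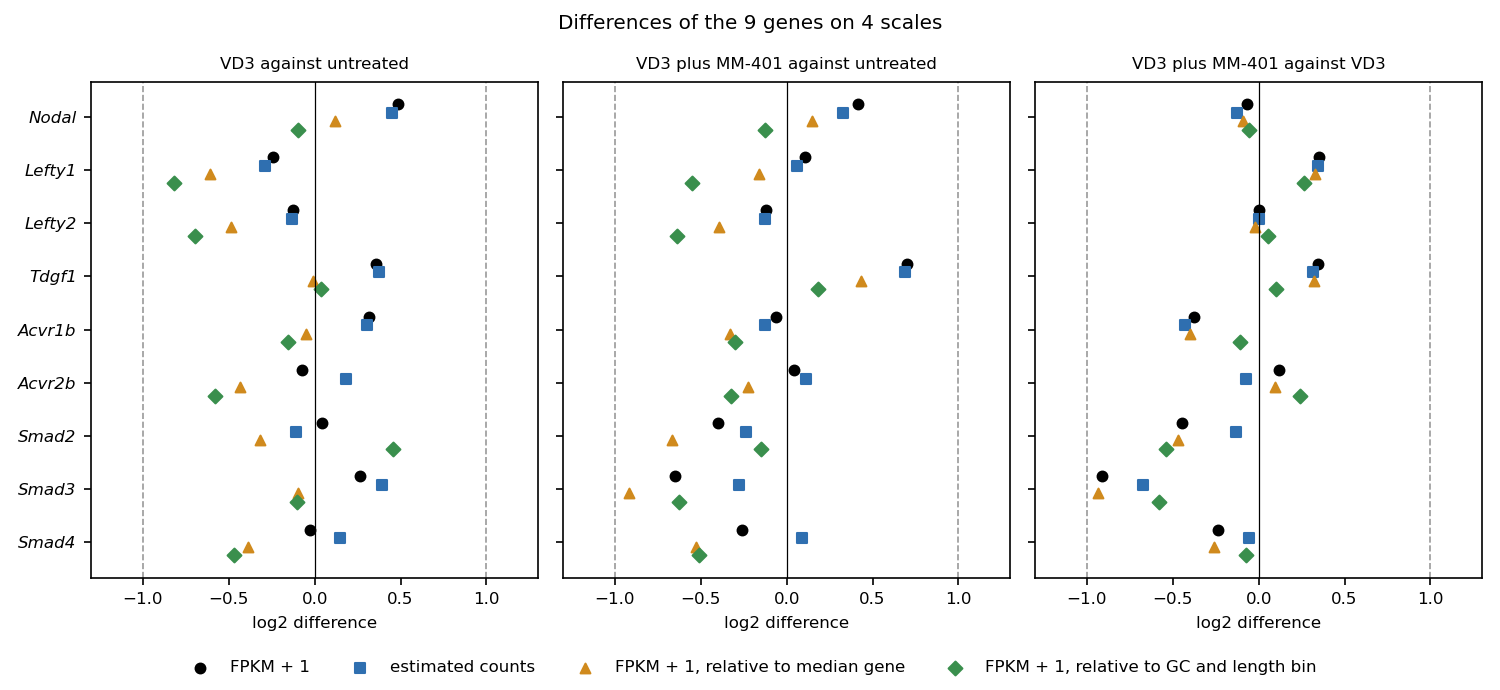
Log2 difference (horizontal axis) of each gene in the 3 comparisons, on FPKM + 1, on the estimated counts, relative to the median gene and relative to genes of like GC content and length; dashed lines mark 2-fold. No point lies beyond the dashed lines, and Smad3 in the right panel comes nearest at -0.91 by FPKM (-0.94 relative to the median gene).

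Differences from untreated went with the GC content of transcripts across all genes. Protein-coding genes were put in 10 bins of about equal size by GC content. In the lowest bin, at a median of 39.8%, the median difference was -0.93 with VD3, and in the highest, at 59.6%, it was 0.52. The 9 genes have a GC content of 44.9% (Smad2) to 58.6% (Lefty1) in their longest transcripts, which are 1620 (Lefty1) to 8089 bases (Smad2) long. Tdgf1 and Smad2 fall in bin 3, where the median difference was 0.05 with VD3 and 0.12 with both agents. The other 7 fall in bins 5 to 10, where the VD3 medians were 0.40 to 0.53, and each of these genes had a difference below the median of its own bin. The part of GC content in these values was not tested beyond the comparison with genes of like GC content and length.

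**Figure D3:**
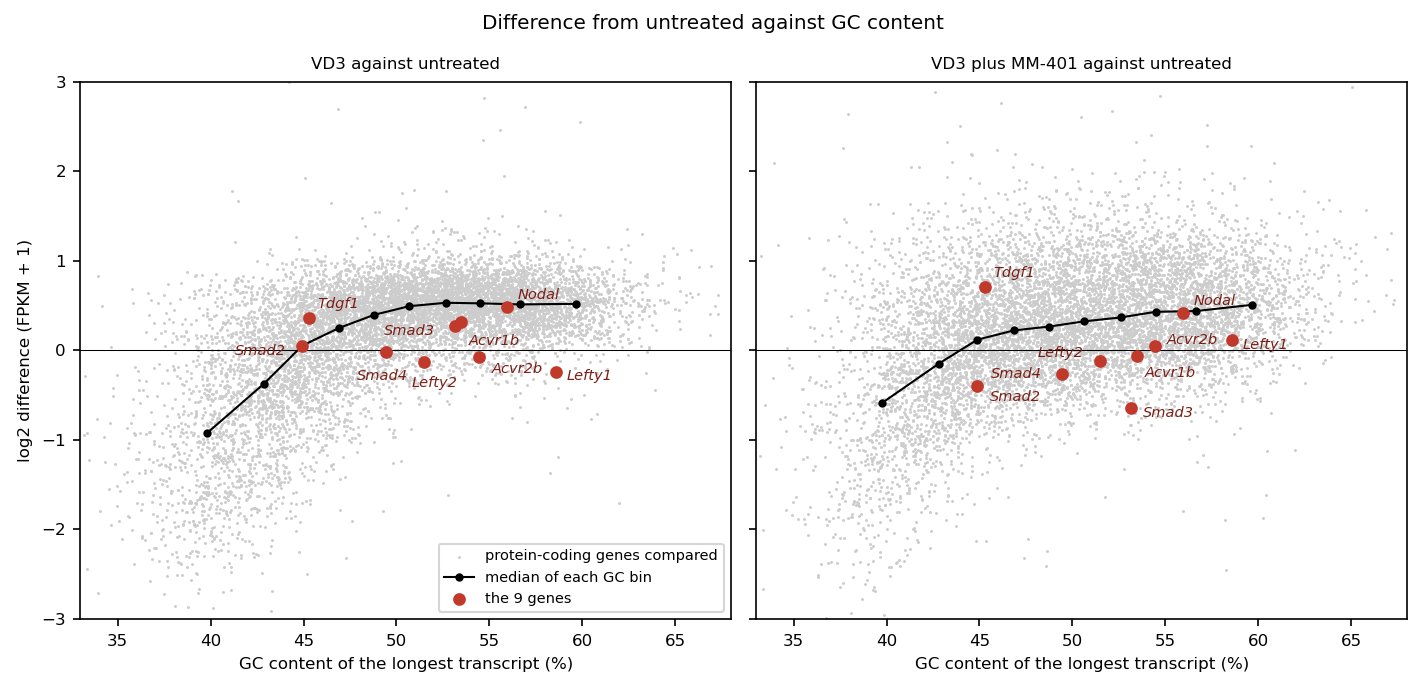
Log2 difference from untreated (vertical axes) against GC content in percent for protein-coding genes (grey), the median of each GC bin (black line) and the 9 genes (red), with VD3 on the left and VD3 plus MM-401 on the right; 18 and 29 genes lie outside the axes. Lefty1, Lefty2, Acvr1b, Acvr2b, Smad3 and Smad4 lie below the black line in both panels, and Tdgf1 lies above it.

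Other genes of the pathway were taken from lists of known components, counted here without the 9 genes above. Of 8 further ligands in the tables, 3 were tested with VD3 and 0 were called, beside 5.14% of all genes. The median difference of the 3 was 0.79, beside 0.36 for all genes. Gdf3, a ligand that also signals through Cripto and the same receptors, stood at 46.3 (29.4 to 63.2), 93.9 (60.5 to 127) and 84.0 FPKM (55.1 to 113), nearest of the ligands to a call. Its difference was 1.00 with VD3, with overlapping bounds. Inhbb, which encodes an activin subunit, was at 14.1, 19.6 and 17.6 FPKM, Tgfb1 at 2.95, 5.81 and 4.63, and the proteases that process such ligands at 16.8, 18.9 and 17.4 (Pcsk7) and 9.52, 9.31 and 8.52 (Furin), with Pcsk5 at 0.0749, 0.0846 and 0.169.

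Of 7 further receptors and co-receptors 3 were tested with VD3 and 1 was called, where 5.14% of all genes were: Tgfbr1, a type I receptor for TGF-beta. The median difference of the 3 was -0.06. It was lower, at 7.36 (4.84 to 9.88) untreated and 2.32 FPKM with VD3 (0.921 to 3.72), a difference of -1.33 that was -0.14 relative to genes of like GC content and length. Between the treated pools 1 of 2 tested was called, beside 1.37% of all genes: Tgfbr3, a co-receptor for TGF-beta. Tgfbr3 was lower with both agents, at 31.3 and 4.45 FPKM (-2.57). Its counts were 344 and 274 (-0.27), so that call rests on the FPKM. Eng, another co-receptor, was at 12.8, 12.2 and 11.6 FPKM.

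Of 10 further SMAD partners, all tested, 1 was called with VD3, beside 5.14% of all genes: Skil, a SMAD-binding repressor that the pathway also induces, at 39.4 FPKM untreated (21.6 to 57.1) and 12.3 with VD3 (3.10 to 21.5). Its difference was -1.60, and -0.29 relative to genes of like GC content and length; with both agents it stood at 18.4 FPKM (9.66 to 27.2) and was not called. The median difference of the 10 was 0.07 with VD3 and -0.22 with both agents, beside 0.36 and 0.27 for all genes. Foxh1, the DNA-binding partner of SMAD2 and SMAD3, stood at 39.7 (24.8 to 54.7), 70.3 (44.1 to 96.5) and 57.3 FPKM (19.8 to 94.7), with overlapping bounds. The corepressor gene Tgif1 was at 200 (124 to 276), 244 (158 to 330) and 271 FPKM (165 to 377), and Drap1, which encodes an inhibitor of FOXH1, at 131, 198 and 255.

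Of 11 further antagonists and other modulators tested, 0 were called in any comparison, beside 5.14%, 6.94% and 1.37% of all genes. Their median difference with VD3 was 0.34, beside 0.36 for all genes. Ppm1a, a SMAD phosphatase, was at 129, 156 and 127 FPKM, and Nomo1 and Ncln, partners in a membrane complex that modulates Nodal signals, were at 81.4, 106 and 96.8 and at 52.0, 75.9 and 61.8. Of 16 further targets 6 were tested with VD3, and Skil was again the 1 called, beside 5.14% of all genes. The median difference of the 6 was -0.04. Smad7, an inhibitory SMAD, was at 21.8, 25.2 and 27.2 FPKM. The targets that mark mesoderm and endoderm were low, and were picked out here after their values were seen: Mixl1 at 0.596, 0.505 and 0.298 and Eomes at 2.13, 2.82 and 3.57. The 8 markers of primitive streak and endoderm summed to 4.20, 4.91 and 6.57 FPKM.

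**Figure D4:**
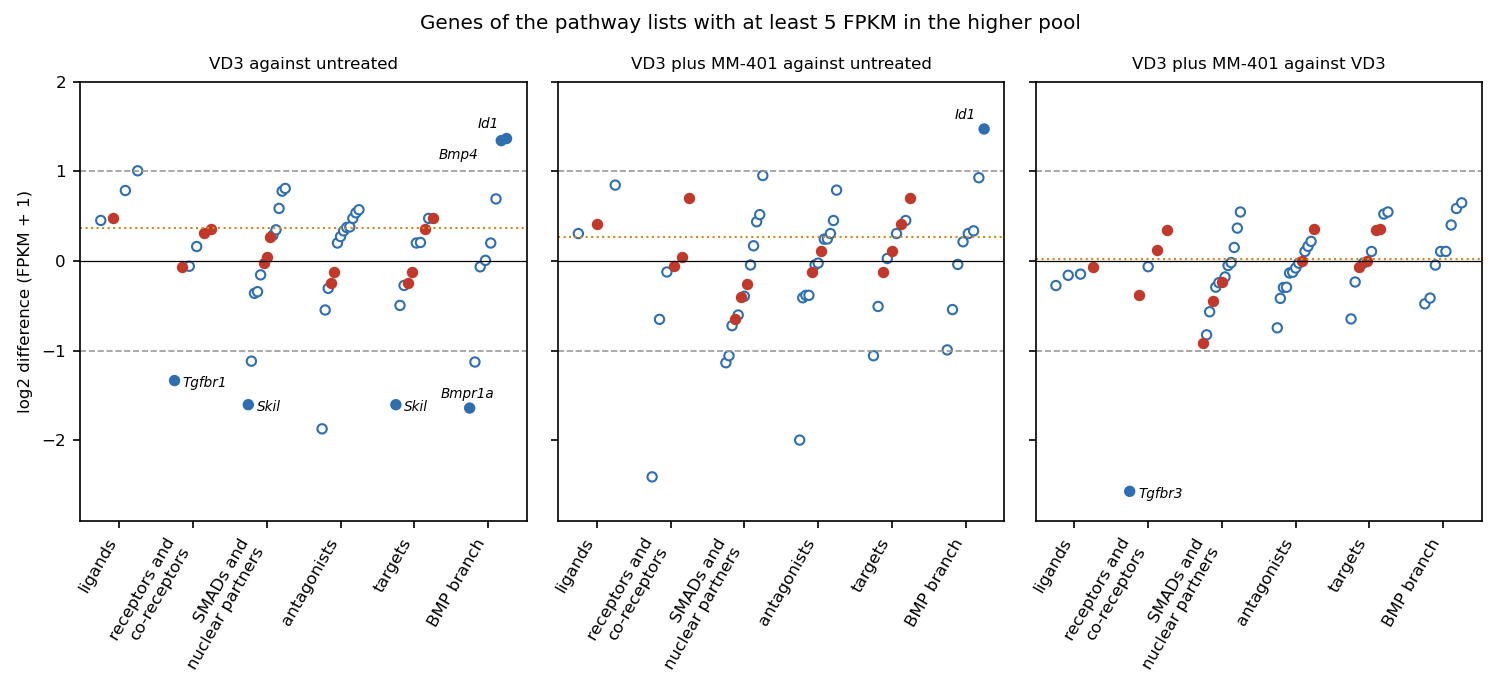
Log2 difference (vertical axis) of every tested gene of 6 lists in the 3 comparisons; red points are the 9 genes, filled blue points are called genes, the dotted line is the median gene and dashed lines mark 2-fold. Named points are Tgfbr1, Skil, Bmpr1a, Bmp4 and Id1 on the left, Id1 in the middle and Tgfbr3 on the right.

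The BMP branch of the same family is given for comparison. Of its 8 genes tested with VD3, 2 were called higher and 1 lower, beside 5.14% of all genes, with a median difference of 0.10. With both agents 1 of 8 was called, Id1, and between the treated pools 0 of 8, beside 6.94% and 1.37% of all genes. Id1, a target of BMP signalling, stood at 45.5, 119 and 128 FPKM, the ligand gene Bmp4 at 10.8, 28.9 and 21.4, and the receptor gene Bmpr1a at 27.4, 8.13 and 13.3. Relative to genes of like GC content and length, the VD3 differences were 0.72 for Id1, 0.75 for Bmp4 and -0.45 for Bmpr1a, all short of 2-fold. Id2, a second BMP target, was at 40.8, 39.0 and 51.8. The Nodal ligand and its target genes Lefty1 and Lefty2 had differences of 0.48, -0.24 and -0.13 with VD3. Bmp4 and Id1, the 2 BMP genes called higher, had 1.34 and 1.36, and Bmpr1a, called lower, had -1.64. The median difference with VD3 was 0.10 for the 8 BMP genes and 0.05 for the 9 genes. Whether the branches differ was not tested.

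Feeder cells and other cell types can add RNA to the pools, and less RNA per cell cannot be told apart from fewer cells in bulk samples. The 17 fibroblast markers in the tables summed to 801, 1297 and 1180 FPKM, and 1, 2 and 2 of them were at 0. Of 7 tested, Vim and S100a6 were called higher with VD3 and S100a6 also with both agents, beside 0.926% and 4.26% of all genes. By mean level the highest were Sparc (394, 575 and 471 FPKM), S100a6 (83.8, 213 and 287), Tagln (105, 190 and 116) and Vim (50.4, 159 and 165). In contrast, 7, 7 and 8 of the 17 were under 1 FPKM. Among these were the collagen gene Col1a1 at 0.630, 0.657 and 0.412 FPKM and Lum at 0 in all pools. The 10 primitive endoderm markers summed to 50.9, 61.3 and 36.9 FPKM. Most of this was Col4a1, at a mean of 33.3 FPKM over the pools. In each pool 5 of the 10 were under 1 FPKM. The 8 macrophage and endothelial markers summed to 32.7, 38.3 and 28.9 FPKM, with Adgre1 at 0 in all pools. Nearly all of this was Cd68 and Pecam1, at means of 18.8 and 14.1 FPKM, and 6 of the 8 were under 1 FPKM throughout. The difference with VD3 was 0.56 for Cd68 and -0.23 for Pecam1. The part of these cell types in the levels of the 9 genes was not tested.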

How the data were processed

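RNA was sequenced from mouse embryonic stem cells in 3 groups of 2 libraries. TopHat2 2.1.1, SAMtools 1.5, Cufflinks 2.2.1 and build mm10 are named in the submitters' processing notes. Roles and order of these tools, read length and strand setting: not given in the sources used here. Per the file headers, the authors deposited FPKM with a lower and an upper bound and an estimated count with its variance, each as 1 pooled column per group. The VD3 column carries its group's name. The untreated column was matched by the cell name that only that group's titles hold, and the third, whose name starts with VD3, by the only other group whose titles do. The labels do not say what the remaining characters of these names stand for, and another meaning would change every comparison with them.

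Values, bounds, counts and variances of loci that share a name were summed, which assumes independence for the variance, and 14 loci without a valid status were left out. Because columns are pooled, a count test across libraries could not be made and no p-value is given. Differences used a pseudocount of 1 FPKM. Across genes with counts above 500, the FPKM per count had a median ratio of 1 between pools, so the counts were taken as deposited on 1 scale in 1 alternative and as CPM in another. Over the same genes the authors' upper bounds lay at a median of 2.38, 2.34 and 2.43 SDs above the FPKM. Protein-coding genes were grouped into 10 GC and 5 length bins from GENCODE vM21 (GRCm38, the sequence of mm10) for the comparison with genes of like composition. Named pathway genes are those called and up to 4 per list by mean FPKM. A listed gene whose locus also names another protein-coding gene has no value of its own here. The members and lists were chosen with earlier results of these data known. Scripts ran in Python 3.11.15 with pandas 2.3.3. Some sequences are not reported here.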

Additional observations from a re-analysis of the deposited data

How the results depend on the processing

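No paired analysis was possible because each group is 1 pooled column and the columns carry no replicate number; for the same reason no replicate could be left out. In every comparison 0 of the 9 genes were called under all 8 alternatives. The pseudocount, the minimum FPKM and both centred scales kept the authors' FPKM bounds, which overlapped for all 9 genes. Those alternatives therefore could not give a call, and only CPM, deposited counts and 2-fold alone could have. Of 27 differences of single genes (9 genes in 3 comparisons), 27 moved by less than 1 SD of the authors' count variance with a pseudocount of 0.1. The minimum FPKM and 2-fold alone do not enter a gene's difference, so they could not move these values. Relative to the median gene 8 moved by more and 7 had the other sign. That scale subtracts 1 constant per comparison (0.36, 0.27 and 0.02), so a move depends only on whether the SD of the gene is smaller. All 8 moves were with VD3 against untreated. Relative to genes of like GC content and length the numbers were 11 and 6, and in CPM 1 and 4. By deposited counts, an alternative chosen after seeing the data, they were 2 and 5. The median difference of the 9 genes with VD3, 0.05, was -0.32 relative to the median gene.

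Counts of called genes moved more. Genes higher with VD3 (101) numbered 22 in CPM, 54 relative to the median gene, 14 relative to the bins and 386 by 2-fold alone. Genes lower (460) numbered 1230 in CPM, 930 by deposited counts, 128 relative to the bins and 949 by 2-fold alone. With VD3 plus MM-401, genes higher (467) numbered 190 in CPM, 299 relative to the median gene, 64 relative to the bins and 1466 by 2-fold alone, and genes lower (294) numbered 772 in CPM, 558 by deposited counts, 111 relative to the bins and 684 by 2-fold alone. Between the treated pools, genes higher (89) numbered 15 relative to the bins and 500 by 2-fold alone. Genes lower (58) numbered 97 with a minimum of 1 FPKM or none, 8 in CPM, 10 by deposited counts, 10 relative to the bins and 216 by 2-fold alone. The bins test only protein-coding genes, and 2-fold alone drops the condition on bounds. CPM and deposited counts replace the authors' FPKM bounds with bounds from the count variance, and CPM has its own minimum. How much of each move came from these changes of rule was not tested. The call rule cannot call a difference under 2-fold, and the SDs are those of the authors' model of the counts, not of libraries.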

Other observations

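Gene by gene, the profile of Lefty1, lowest with VD3, was nearest to those of Trappc6b (40.1, 33.8 and 43.5 FPKM), Gpatch2 and Rspry1, by the Euclidean distance of centred log2 values over the 3 pools among 8432 protein-coding genes. Lefty2 was nearest to Nr5a2, which encodes an orphan nuclear receptor that can drive Oct4 transcription (15.6, 14.2 and 14.3 FPKM), Map3k12 and Arhgef11. Nodal was nearest to Dnaaf5 (31.5, 44.3 and 42.2 FPKM), Map3k11 and Dedd2, and 464 genes lay within a distance of 0.1 of it, against 89 for Lefty1, 155 for Lefty2 and 191 for Tdgf1. Tdgf1 was nearest to Atp6v1g1 (20.6, 26.3 and 33.9 FPKM), Pidd1 and Lrig3. With 3 pooled values per gene such likeness is common and describes these pools.

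Usp9x, a deubiquitinase that acts on SMAD4 and was singled out after its values were seen, stood at 101 FPKM untreated (24.2 to 179), 27.0 with VD3 (4.94 to 49.1) and 24.7 with both agents (0 to 56.6). Its difference with VD3, -1.87, was the lowest of the list of antagonists and other modulators, with overlapping bounds. Relative to genes of like GC content and length it was -0.56. A place in that list does not mean that Usp9x opposes the signal. Trim33, which binds SMAD2 and SMAD3, was at 69.5, 31.5 and 31.1 FPKM, also with overlapping bounds.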
